A study of Homo sapiens with 8 samples.

Results

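The signal-transducing SMADs are 6 genes, SMAD1, SMAD2, SMAD3, SMAD4, SMAD5 and SMAD9, and they were read on 25 of the 54613 probe sets of the array that are not controls. A probe set is a group of short probes that report on 1 transcript. The members were all probe sets that the platform annotation gives to 1 of these genes, and no probe set named a member together with another gene. They make up 6 of the 19775 genes that the annotation names. SMAD1 had 3 probe sets, SMAD2 had 6, SMAD3 had 4, SMAD4 and SMAD5 had 5 each, and SMAD9 had 2. The rule used no measured value, although the 6 genes were picked with earlier results of these data known.

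RNA came from MDA-MB-231 cells, a human line from a metastatic breast cancer, that carried a retroviral construct for a hairpin RNA against GFP as the control hairpin. Both groups shared this hairpin and 24 h without serum in DMEM/F12, with no further serum during the treatment. One group was left untreated and the other received TGFβ for 3 h at a labelled dose of 5 µg/ml, a unit that is uncertain because this cytokine is usually given in ng/ml. Each group had 4 arrays, called biological replicates A to D, without a statement of what a letter stands for or how the hairpin line was derived. The study's arrays of cells depleted of p53 were not analysed here.

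SMADs carry the signal of the TGFβ family from the cell surface to the nucleus. Activated type I receptors phosphorylate receptor-regulated SMADs, which join SMAD4 and bind DNA together with other transcription factors. SMAD2 and SMAD3 serve mainly TGFβ and activin, and SMAD1, SMAD5 and SMAD9 serve mainly bone morphogenetic proteins (BMPs), while SMAD6 and SMAD7 inhibit the pathway. Activation is a change of the protein and of its location, which an RNA array does not measure. The values below are levels of transcript only, and in bulk RNA a smaller number of cells with a transcript cannot be told apart from less transcript per cell.

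The values are log2 signals from RMA, the method by which the authors corrected, normalised and summarised the probes. A fold change is the mean of the treated arrays minus the mean of the untreated arrays on that log2 scale. It was tested with limma over the whole table with Benjamini-Hochberg adjustment and a threshold of 0.05, and the p-values measure only the spread between these 8 arrays. RMA makes no detection call, and signals near background understate changes. Probes bind with different strength, so setting a signal beside that of other probe sets, as with the median gene below, is only a rough guide to level. Array medians lay between 4.62 and 4.66. The treated array of replicate A stood apart in its RNA measures: its ACTB 3′ control probes exceeded the 5′ ones by 1.68 against 0.63 to 0.89 on the other 7 arrays, and the same difference for GAPDH was 0.54 against 0.06 to 0.14. The SMAD values that it moved by over 1.5 times or in sign are given with and without it. The 6 markers of the mesenchymal-like line (VIM, CD44, CAV1, AXL, ANXA1, MSN) had mean signals of 9.69 to 13.6, above the median gene at 5.80, as had 4 of 8 luminal or epithelial markers, 0 of 4 fibroblast, 1 of 4 endothelial and 1 of 3 leukocyte markers. Of the epithelial markers CDH1 was higher after TGFβ by 0.90 (limma adjusted p = 0.00579), but its mean signal was low. It was 4.08 untreated and 4.98 treated, both below the median gene. ERBB3 was lower by a log2 fold change of -0.96 (adjusted p = 0.0206). Values without single arrays are not given for either gene. The summed signal of all 8 epithelial markers was 49.24 to 50.53 on untreated and 49.02 to 50.005 on treated arrays.

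After 3 h of TGFβ none of the 25 SMAD probe sets passed the test, against 0.256% of all probe sets. At an unadjusted p under 0.05 there were 2 SMAD probe sets, or 8%, against 7.44% of the table. Fold changes of the 25 ran from -0.54 to 0.42 with a median of -0.05, beside 0.01 for all probe sets. Of the 25, 17 were below 0, beside 25264 of all 54613 probe sets. The 95% interval stayed within a 2-fold change in either direction for 24 of the 25, the exception being SMAD3 205396_at, and within 1.5-fold for 19. The shares of all probe sets within these bounds were not computed. The median standard error was 0.13 for the 25 and 0.12 for all probe sets. The untreated and treated arrays did not overlap on 2 of the 25 probe sets, 1 of SMAD1 and 1 of SMAD2, both lower after TGFβ. Of all probe sets 4.75% did not overlap, with 1.97% lower and 2.79% higher.

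**Figure D1:**
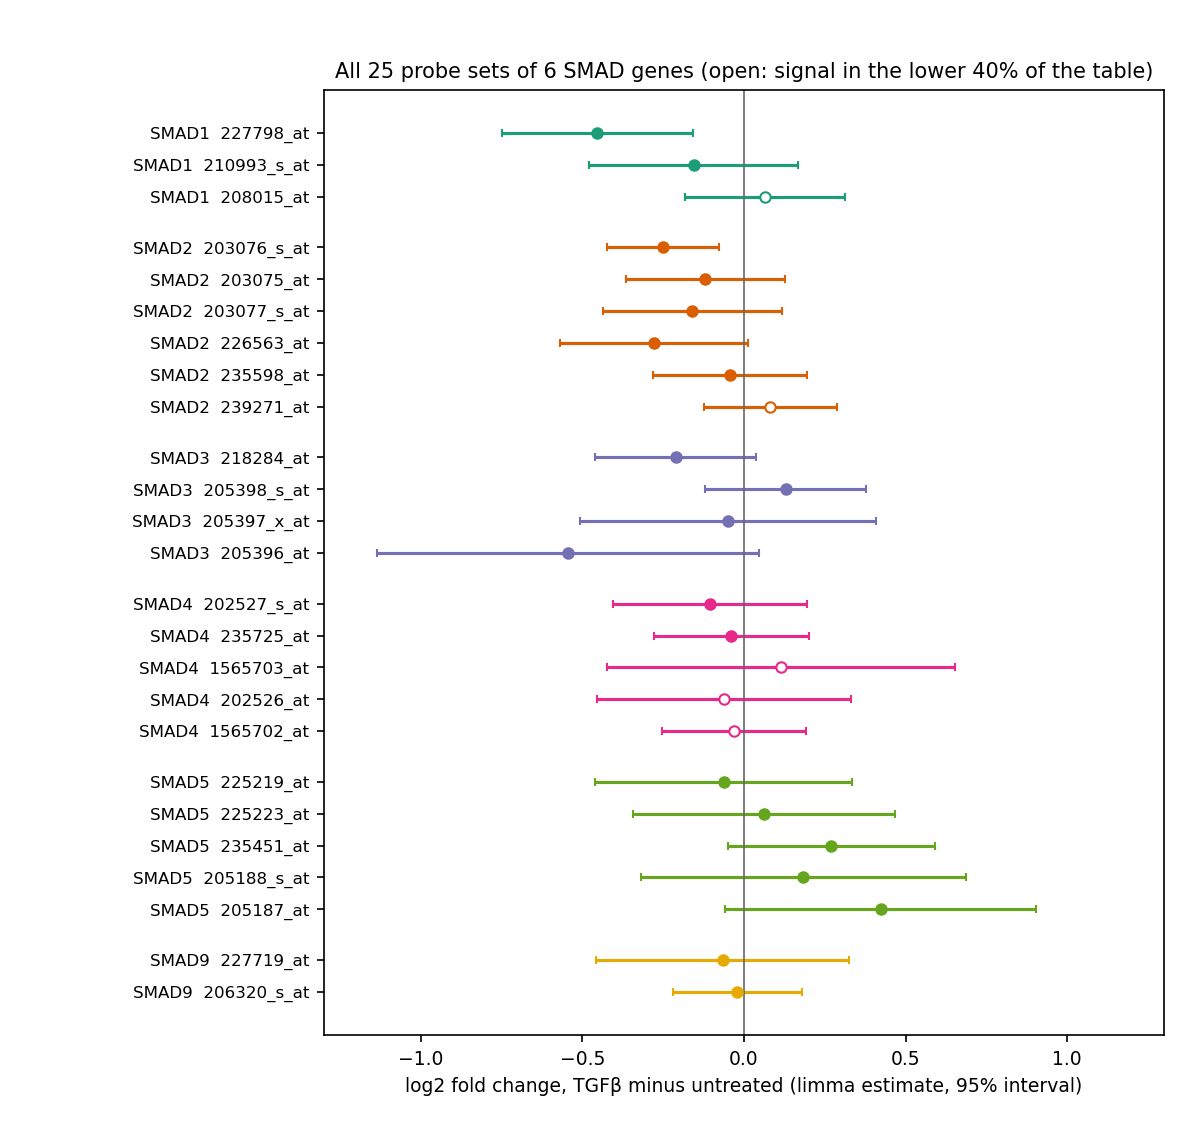
Log2 fold change (treated minus untreated) with its 95% interval from limma for each of the 25 SMAD probe sets, n = 4 arrays per group, with open symbols for the 5 probe sets whose mean signal lay outside the upper 60% of the probe sets. All intervals but those of SMAD1 227798_at and SMAD2 203076_s_at include 0, and 4 of the 5 SMAD5 estimates lie above 0.

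When the replicate letter was entered as a block in the limma fit, so that each treated array was set against the untreated array of the same letter, again 0 of the 25 probe sets passed, against 1.75% of the table. At an unadjusted p under 0.05 there were then 5, or 20%, against 13.2% of the table. The treated array was the lower one in all 4 letters for 4 probe sets, SMAD1 227798_at, SMAD2 203076_s_at, and SMAD3 218284_at and 205396_at, or 16% of the members, against 10% of all probe sets. It was the higher one in all 4 letters for 0 of the 25, against 11% of all probe sets. Within letters the median difference of the 25 was -0.06 in A, -0.08 in B, -0.13 in C and -0.12 in D, beside 0.01, -0.01, 0.03 and 0.01 for all probe sets.

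With 1 probe set for each gene, the brightest one, none of the 6 SMAD genes passed the test, against 0.576% of genes, and with the letter as a block SMAD1 passed, against 3.57% of genes. The 6 estimates were all below 0, with a median of -0.16 beside 0.01 for all genes. Of all 19775 genes, 9338 were below 0. The sign was the same for SMAD1, SMAD2, SMAD3 and SMAD4 without any 1 array, and it turned for SMAD5 without untreated B or treated C and for SMAD9 without untreated A, untreated B or treated D. As the mean of all probe sets of a gene the values were -0.18 for SMAD1 (limma adjusted p = 0.503), -0.13 for SMAD2, -0.17 for SMAD3, -0.02 for SMAD4, 0.18 for SMAD5 and -0.04 for SMAD9, and none passed. Without its _s_at probe sets SMAD2 was represented by the brightest one left, 203075_at, at -0.12.

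**Figure D2:**
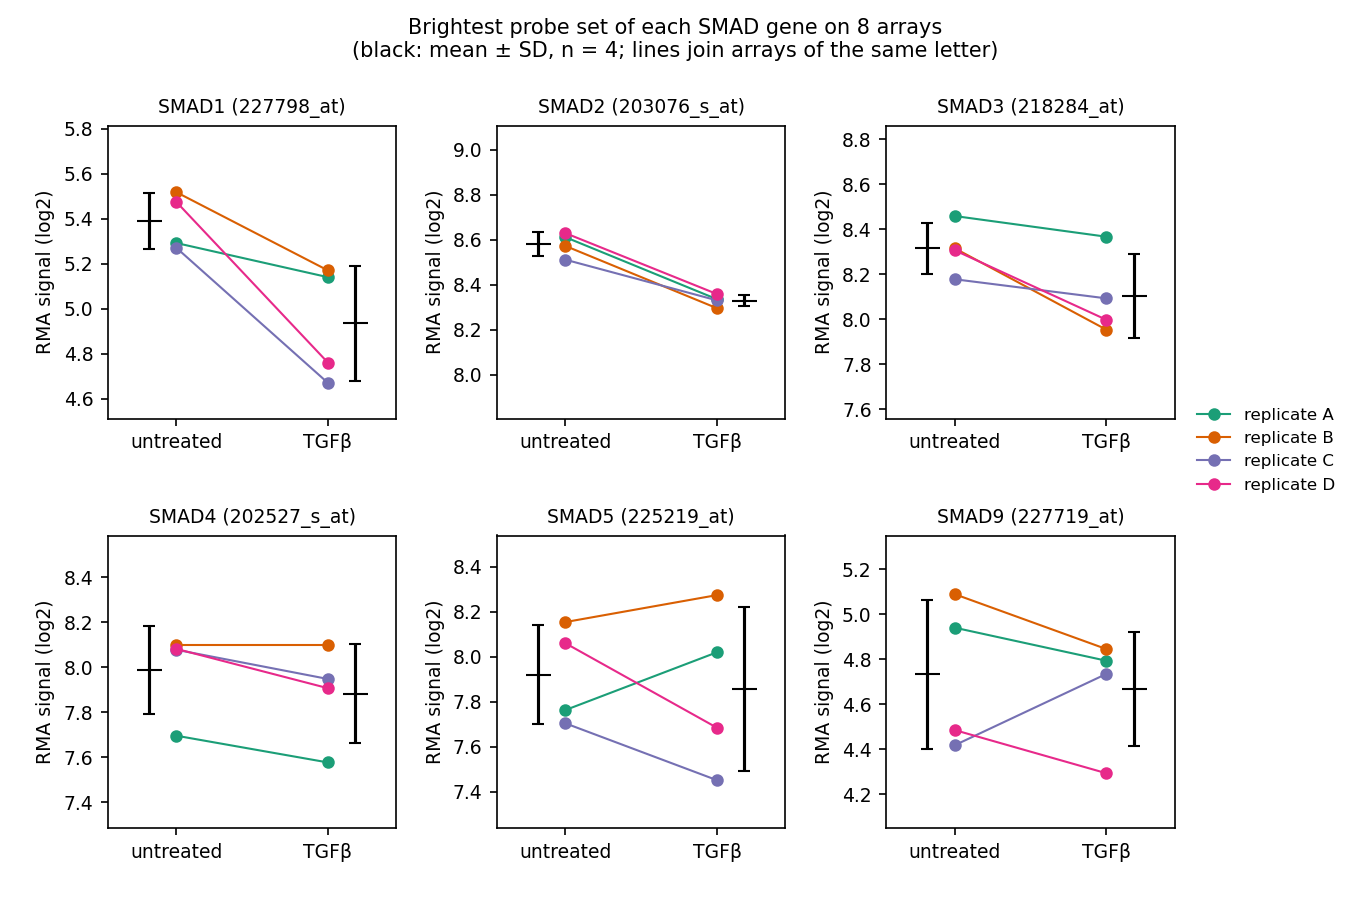
RMA log2 signal of the brightest probe set of each SMAD gene on the 4 untreated and 4 treated arrays, with lines joining arrays of the same replicate letter and the mean ± SD (n = 4) in black. The groups do not overlap for SMAD1 and SMAD2 and overlap for the other 4 genes, and the panels span equally many log2 units from different offsets.

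Among the SMADs of the TGFβ and activin branch, SMAD2 (Entrez Gene 4087) encodes the receptor-regulated SMAD whose main form does not bind DNA directly. Probe set 203076_s_at read 8.61, 8.57, 8.51 and 8.63 on untreated A, B, C and D. On treated A to D it read 8.34, 8.29, 8.33 and 8.36. All 4 treated arrays lay below all 4 untreated ones, and the spread was small, with an SD of 0.05 untreated and 0.03 treated. The fold change was -0.25 ± 0.08 (SE, 95% interval -0.42 to -0.08), a ratio of 0.840, with a limma adjusted p of 0.394 over all probe sets and 0.213 with the letter as a block. It thus did not pass, although the groups were apart, and without treated A it was again -0.25 (adjusted p = 0.398).

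The other SMAD2 probe sets showed smaller or more variable differences. SMAD2 226563_at read 6.76, 7.10, 6.87 and 6.997 untreated and 6.86, 6.85, 6.42 and 6.48 treated, a fold change of -0.28 ± 0.13 (SE, adjusted p = 0.692). Its treated arrays C and D were below every untreated array and its treated A and B were within their range. The same split showed on SMAD2 203077_s_at, which read 7.42, 7.67, 7.53 and 7.66 untreated and 7.64, 7.57, 7.26 and 7.17 treated (-0.16, adjusted p = 0.839), and on SMAD2 203075_at, which read 8.16, 8.49, 8.29 and 8.37 untreated and 8.30, 8.39, 8.07 and 8.06 treated (-0.12, adjusted p = 0.872). SMAD2 235598_at had a fold change of -0.04. The dim SMAD2 239271_at, at 3.57 to 3.90 over all 8 arrays, had one of 0.08. Thus 5 of 6 SMAD2 probe sets had an estimate below 0 and none passed.

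SMAD3 (Entrez Gene 4088) encodes the partner of SMAD2 that binds DNA itself. Its brightest probe set, 218284_at, read 8.46, 8.32, 8.18 and 8.31 untreated. On the treated arrays it read 8.37, 7.95, 8.09 and 7.998. Each treated array was below the untreated array of its letter, but treated A was above 3 of the 4 untreated arrays, so the groups overlapped. The fold change was -0.21 ± 0.11 (SE, 95% interval -0.46 to 0.04, adjusted p = 0.748), and without treated A the SMAD3 gene-level value was -0.30 (adjusted p = 0.300).

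SMAD3 205396_at had the lowest estimate of the 25. It read 5.41, 6.34, 5.61 and 6.17 untreated and 4.59, 5.55, 5.55 and 5.66 treated. Letter A was the lowest of the untreated arrays and by far the lowest of the treated ones, and both groups were wide, with SDs of 0.44 and 0.50. The fold change was -0.54 ± 0.27 (SE, adjusted p = 0.712, and 0.0857 with the letter as a block), and it was -0.30 without treated A (adjusted p = 0.771), the array with the raised 3′ to 5′ differences, whose part in this value was not otherwise tested.

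The remaining SMAD3 probe sets did not move the same way. SMAD3 205397_x_at read 6.83, 7.07, 6.94 and 7.08 untreated and 6.30, 6.80, 7.37 and 7.25 treated, with treated A and B below every untreated array and treated C and D above every one. Its fold change was -0.05 with all arrays and 0.16 without treated A. SMAD3 205398_s_at read 7.13, 7.49, 7.58 and 7.48 untreated and 7.47, 7.48, 7.65 and 7.60 treated, a fold change of 0.13 (adjusted p = 0.861). A suffix of _s_at or _x_at marks probes that can match several transcripts or sequences.

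SMAD4 (Entrez Gene 4089), the partner that both branches share, had estimates close to 0. SMAD4 202527_s_at read 7.70, 8.10, 8.08 and 8.08 untreated and 7.58, 8.10, 7.95 and 7.91 treated. Replicate A was lowest in both groups, and the other 6 arrays lay between 7.91 and 8.10. The fold change was -0.11 ± 0.14 (SE, 95% interval -0.41 to 0.19, adjusted p = 0.917), and without treated A the SMAD4 gene-level value was -0.00. SMAD4 235725_at read 6.29, 6.44, 6.32 and 6.37 untreated and 6.45, 6.48, 6.07 and 6.25 treated, a fold change of -0.04 that turned to 0.01 when the table was quantile normalised again. The other 3 SMAD4 probe sets had mean signals outside the upper 60% of all probe sets. Of these SMAD4 1565703_at was at 3.77 and 4.41 on the untreated and treated array of letter B and at 3.20 to 3.39 on the other 6.

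SMAD7 (Entrez Gene 4092) encodes the inhibitory SMAD that is a direct target of SMAD complexes, and it serves here as the check that the treated cells had responded. Its signal was 5.98 ± 0.41 (SD, n = 4) untreated and 7.78 ± 0.34 (SD, n = 4) treated, with no overlap. SMAD7 rose by 1.81 ± 0.21 (SE, log2), a ratio of 3.5 (gene-level limma adjusted p = 0.0039), and passed without any 1 of the 8 arrays, at 1.98 without treated A.

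SMAD3 and SMAD4 bind the half-site GTCT, which reads AGAC on the other strand. The windows of 250 bases before the annotated start of SMAD2, SMAD3, SMAD4 and SMAD7 follow, from the RefSeq table of build GRCh38.p14, 5′ to 3′ on the strand of the gene, with every GTCT or AGAC in capitals. They are shown to set SMAD2, SMAD3 and their shared partner SMAD4, which did not pass the test, beside the SMAD gene that rose. The SMAD2 window is chr18:47930873-47931122 on the minus strand, the SMAD3 window chr15:67065352-67065601 on the plus strand, the SMAD4 window chr18:51029963-51030212 on the plus strand and the SMAD7 window chr18:48950966-48951215 on the minus strand, all just upstream of the annotated gene.
SMAD2: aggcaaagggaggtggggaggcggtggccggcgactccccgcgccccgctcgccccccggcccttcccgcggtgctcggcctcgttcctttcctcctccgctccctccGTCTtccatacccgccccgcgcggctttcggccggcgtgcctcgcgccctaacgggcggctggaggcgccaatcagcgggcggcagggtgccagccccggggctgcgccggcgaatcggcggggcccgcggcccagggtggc
SMAD3: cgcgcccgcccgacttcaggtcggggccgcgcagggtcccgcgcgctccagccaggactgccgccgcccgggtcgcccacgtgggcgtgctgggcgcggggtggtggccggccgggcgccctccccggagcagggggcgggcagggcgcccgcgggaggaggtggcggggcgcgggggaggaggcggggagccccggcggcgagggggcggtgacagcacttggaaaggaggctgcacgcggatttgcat
SMAD4: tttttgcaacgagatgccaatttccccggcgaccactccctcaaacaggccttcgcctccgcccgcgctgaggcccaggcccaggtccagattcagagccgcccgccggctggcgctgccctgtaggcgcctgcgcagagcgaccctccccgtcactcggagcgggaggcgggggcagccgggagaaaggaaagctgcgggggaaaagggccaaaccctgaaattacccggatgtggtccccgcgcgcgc
SMAD7: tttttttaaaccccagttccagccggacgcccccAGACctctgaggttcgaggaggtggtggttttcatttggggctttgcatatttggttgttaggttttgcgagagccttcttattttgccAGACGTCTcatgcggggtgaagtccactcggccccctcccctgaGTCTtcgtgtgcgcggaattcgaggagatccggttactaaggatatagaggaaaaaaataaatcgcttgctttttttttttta
The SMAD2 window held 1 half-site, the SMAD3 and SMAD4 windows 0 and the SMAD7 window 4, of which 2 adjoin each other. The windows also differ in base composition, which the counts do not take into account. G and C make up 78.4% of the SMAD2, 80.8% of the SMAD3, 68.4% of the SMAD4 and 48% of the SMAD7 window. Of the 35116 windows listed for all genes, 77.5% held at least 1, the median was 1, and 7.75% held 4 or more. None of the 4 held the palindrome GTCTAGAC, in which a GTCT meets an AGAC and which stood in 0.182% of all windows. The count depended on the start: SMAD1 and SMAD3 had 5 listed windows each with 0 to 5 half-sites and SMAD7 had 3 with 1 to 5. For the BMP branch the first listed windows held 2 half-sites for SMAD1, 1 for SMAD5 and 1 for SMAD9, and the SMAD1 and SMAD9 windows lay within the annotated bounds of the gene. A match is a run of letters and not a shown binding site, and no match says only that these letters are not in this window.

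In the BMP branch, SMAD1 (Entrez Gene 4086) had the lowest gene-level estimate of the 6. Probe set 227798_at read 5.29, 5.52, 5.27 and 5.48 on untreated A to D. On the treated arrays it read 5.14, 5.17, 4.67 and 4.76. All 4 treated arrays were below all 4 untreated ones, with treated C and D further down than A and B. The fold change was -0.45 ± 0.13 (SE, 95% interval -0.75 to -0.16), a ratio of 0.730, and the mean of the 3 SMAD1 probe sets gave -0.18. The limma adjusted p was 0.340 over all probe sets and 0.249 over genes, and SMAD1 did not pass.

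With the letter as a block, the SMAD1 adjusted p was 0.0901 over all probe sets and 0.0431 over genes, so SMAD1 passed in the gene-level fit with the block alone. This call rested on having all 4 letters or leaving out A: it was 0.00568 without letter A, and 0.145, 0.194 and 0.227 without B, C and D. Without the block, SMAD1 passed in 0 of 8 fits that left out 1 array, with adjusted p-values from 0.15 to 0.635 and fold changes from -0.53 to -0.37. Without treated A alone the SMAD1 value was -0.52 (adjusted p = 0.15).

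The second SMAD1 probe set, 210993_s_at, gave a smaller value. It read 4.66, 5.03, 5.04 and 4.99 untreated and 4.39, 4.88, 4.81 and 5.03 treated (SMAD1 fold change -0.16 ± 0.15, SE, adjusted p = 0.873), with letter A lowest in both groups and treated D within the untreated range. Without treated A it was -0.03. The third, SMAD1 208015_at, stayed between 2.38 and 2.74 on all arrays, with a fold change of 0.07.

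SMAD5 (Entrez Gene 4090) encodes a close relative of SMAD1. The brightest SMAD5 probe set, 225219_at, read 7.76, 8.15, 7.70 and 8.06 untreated and 8.02, 8.27, 7.45 and 7.68 treated. Treated A and B were above their untreated partners and treated C and D below, so the groups overlapped, at a fold change of -0.06 ± 0.18 (SE, 95% interval -0.46 to 0.34, adjusted p = 0.969). The other 4 SMAD5 probe sets had estimates above 0. SMAD5 235451_at read 6.89, 7.29, 7.17 and 7.23 untreated and 7.60, 7.67, 7.09 and 7.31 treated (0.27, adjusted p = 0.751). SMAD5 205187_at read 5.78, 5.46, 5.78 and 5.17 untreated and 5.80, 6.62, 5.65 and 5.80 treated (0.42 ± 0.22, SE, adjusted p = 0.735). On the last of these only treated B stood well above the untreated arrays. SMAD5 225223_at and 205188_s_at had fold changes of 0.06 and 0.18, and the mean of the 5 SMAD5 probe sets gave 0.18 where the brightest gave -0.06.

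SMAD9 (Entrez Gene 4093), the third BMP transducer, had 2 probe sets of modest signal. SMAD9 227719_at read 4.94, 5.09, 4.42 and 4.49 untreated and 4.79, 4.85, 4.74 and 4.29 treated. The untreated arrays were themselves split, with A and B above C and D, and the fold change was -0.07 ± 0.18 (SE, 95% interval -0.46 to 0.33, adjusted p = 0.967). SMAD9 206320_s_at stayed between 4.23 and 4.47 on all arrays, with a fold change of -0.02 ± 0.09 (SE, adjusted p = 0.982).

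**Figure D3:**
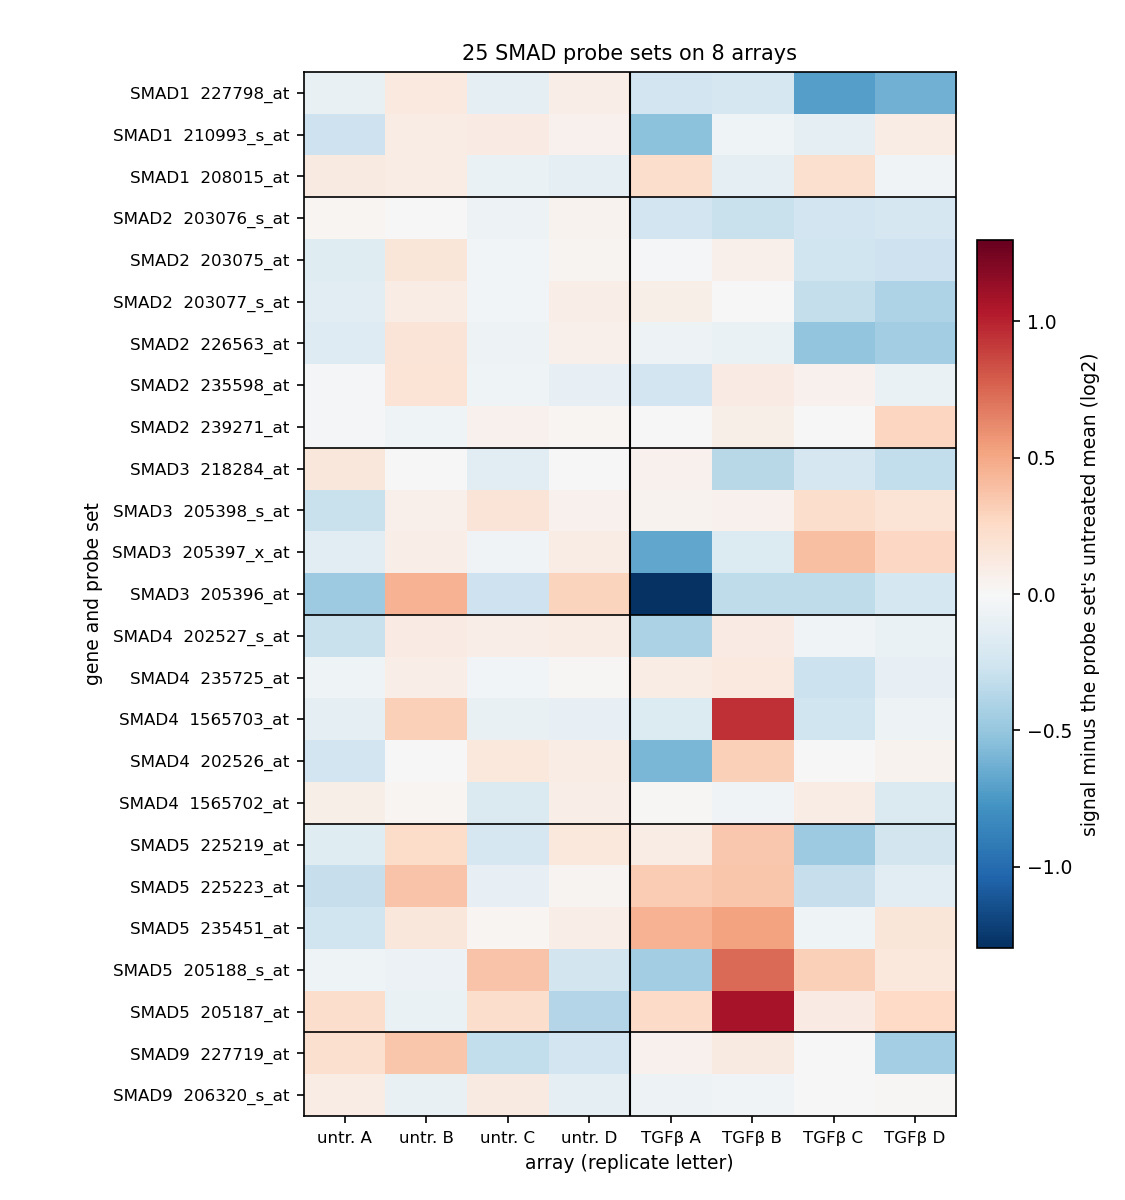
Difference of each of the 25 SMAD probe sets (rows) on each of the 8 arrays (columns) from the mean of its 4 untreated arrays, in log2 units, blue for lower and red for higher. Treated C and D are the bluest columns for SMAD1 227798_at and 3 SMAD2 probe sets, treated A is lowest for SMAD3 205396_at, and treated B is highest for SMAD5 205187_at and SMAD4 1565703_at.

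The lowest and highest values of the SMAD probe sets fell unevenly on the arrays. Treated A, B, C and D had the lowest of the 8 values on 7, 3, 6 and 4 of the 25. The shares of all probe sets were 14.9%, 16.2%, 13.3% and 7.49%. Untreated A, B, C and D had it on 2, 1, 0 and 2, against 13.2%, 13.0%, 10.4% and 11.4% of all probe sets. Untreated B had the highest value on 9 and treated B on 7 of the 25, against 11.5% and 11.8% of all probe sets. The other arrays had it on 1 to 3 each, against 8.29% to 17.2% of all probe sets. Without treated A the fold changes nearer 0 were those of SMAD1 208015_at (0.01), SMAD4 202527_s_at (-0.00) and SMAD9 206320_s_at (-0.01), beside SMAD1 210993_s_at and SMAD3 205396_at above. Those further from 0 were SMAD4 235725_at (-0.08), SMAD4 1565703_at (0.21), SMAD4 1565702_at (-0.05), SMAD5 225219_at (-0.12), SMAD5 205188_s_at (0.40) and SMAD9 227719_at (-0.11). The sign turned, beside SMAD3 205397_x_at, for SMAD2 235598_at (0.02), SMAD4 202526_at (0.11) and SMAD5 225223_at (-0.03), and none of these passed. Probe sets of 1 gene share RNA and partly overlap in sequence, so these counts are not of independent measurements.

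Responses were set against each other within arrays, with exact permutation tests (two-sided) over all 70 ways to assign 8 arrays to 4 and 4. Of 15 pairs of SMAD genes none passed after Benjamini-Hochberg adjustment over the 15. With so few arrays, a pair at the smallest possible p cannot pass unless many other pairs reach that p too. This outcome was thus nearly fixed by the design and says little about differences between the genes. The pair with the smallest p was SMAD1 and SMAD5: the SMAD1 fold change was lower by a difference of -0.39, with -0.47 to -0.34 over the 4 letters and the same sign in 4 of 4 (exact permutation p = 0.0286, the smallest this design allows, adjusted p = 0.429). SMAD2 and SMAD3, the TGFβ pair, differed by -0.04 in fold change with an exact permutation p of 0.83, which does not show that they responded alike. Of 19 comparisons of another probe set with the brightest one of the same gene none passed either, under the same limit. The smallest exact permutation p was 0.0286 (adjusted p = 0.362), for SMAD2 239271_at minus 203076_s_at at a difference of 0.33, where 239271_at is dim.

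Noncoding neighbours with SMAD names were not members, and their group means lay between 2.43 and 3.25. SMAD5-AS1, SMAD3-DT and SMAD1-AS2 had fold changes of -0.11, 0.17 and -0.05 (limma adjusted p = 0.903, 0.805 and 0.955).

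Genes whose signal followed a SMAD gene most closely over the 8 arrays were taken from 11864 genes in the upper 60% of signals. This is a description of 8 arrays that share treatment and letters, with Pearson's r and no test. SMAD1 went with ERCC5 (r = 0.984) and ZFP82 (0.978), and SMAD2 with MERTK (0.982) and SETDB1 (0.9748). SMAD3 went with GRSF1 (0.988) and DAPK1 (0.978), and SMAD4 with KRCC1 (0.984) and TPBG (0.981). SMAD5 went with ZNF644 (0.982) and USP34 (0.980), and SMAD9, among 11865 genes, with FAM229A (0.954) and PLCXD2 (0.936). An r over 0.9 was reached by 201 genes for SMAD5 and 189 for SMAD1, by 106 for SMAD4, 85 for SMAD3 and 48 for SMAD2, and by 5 for SMAD9. Of the 12 named genes MERTK, a receptor tyrosine kinase, was the one that passed the test, with a fold change of -0.89 (limma adjusted p = 0.00664).

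The machinery that acts on SMADs was followed in 6 lists with 68 symbols, of which 61 were measured here. In the gene-level fit 2 of the 61 were higher and 1 lower, against 0.354% and 0.223% of all genes. With the letter as a block 5 were higher and 4 lower, against 1.39% and 2.18% of all genes. List medians are given beside 0.01 for all genes, and a list is described by its counts only.

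Of 11 receptor kinases none passed, and 1 was lower with the block (median -0.05). It was TGFBR2, the type II receptor that binds TGFβ, whose signal was 10.70 ± 0.24 untreated and 10.19 ± 0.21 treated (SD, n = 4) without overlap. Its fold change was -0.51 (limma adjusted p = 0.223, and 0.00678 with the block), and -0.41 without treated A. The block call was lost without letter B (0.0637). TGFBR1, the type I receptor that phosphorylates SMAD2 and SMAD3, had a fold change of -0.11 (adjusted p = 0.960).

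Of 8 inhibitory SMADs and corepressors 1 was higher, SMAD7, and 3 with the block (median 0.10). The other pair was SKIL and SKI, corepressors that bind SMAD2, SMAD3 and SMAD4: SKIL had a fold change of 1.41 (limma adjusted p = 0.157, and 0.00205 with the block) and SKI one of 0.59 (adjusted p = 0.201, and 0.0314 with the block). Without the block, SKIL passed when untreated B was left out (1.73, adjusted p = 0.0336) and SKI when treated A was left out (0.72, adjusted p = 0.0429). The SKI block call was lost without letter C (0.160) or D (0.142), and that of SKIL held without any 1 letter. Averaged over their probe sets, the values were 0.35 for SKI and 0.88 for SKIL, and neither passed (adjusted p = 0.408 and 0.0802). SMAD6, the inhibitor tied to the BMP branch, had a fold change of -0.02 on its brightest probe set (adjusted p = 0.994). Of its 4 probe sets only 1, the brightest, had this sign.

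Of 12 ubiquitin ligases and deubiquitinases none passed, and with the block 1 was higher and 1 lower (median -0.05). SMURF1, a ligase for SMAD1 and SMAD5, had a fold change of 0.58 (limma adjusted p = 0.157, and 0.00485 with the block) and passed without treated A (0.69, adjusted p = 0.0419), but in none of the other 7 fits that left out 1 array. The mean of its 5 probe sets gave 0.31 (adjusted p = 0.266). NEDD4L, a ligase for activated SMAD2 and SMAD3, had one of -0.47 (adjusted p = 0.705, 0.0309 with the block), and 4 of 6 NEDD4L probe sets were below 0. NEDD4L was at -0.22 without untreated A, -0.62 without treated A and -0.33 as the mean of its probe sets, and its block call was lost without letter B (0.132), C (0.0563) or D (0.104). Of 8 phosphatases and linker kinases none passed, and CTDSPL, a small phosphatase that acts on SMADs, passed with the block at -0.57 (adjusted p = 0.320, and 0.00882 with the block; list median -0.05). The CTDSPL block call was lost without letter B (0.0675) or D (0.0568), and the value was -0.55 without treated A and -0.32 as the mean of its probe sets.

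Of 11 genes for anchoring, transport and nuclear exit PMEPA1 was higher (median -0.01). PMEPA1 encodes a membrane protein that binds SMAD2 and SMAD3 and holds them from the receptor, and its signal was 9.74 ± 1.04 untreated and 11.99 ± 0.23 treated (SD, n = 4). It rose by 2.24 (limma adjusted p = 0.0418, and 0.000501 with the block), and its 3 probe sets had the same sign, but their mean did not pass (2.25, adjusted p = 0.0844). It did not pass without untreated C (adjusted p = 0.135), untreated D (0.0849), treated B (0.0982), treated C (0.115) or treated D (0.148), where the fold change was 2.17 to 2.42. Of 11 coactivators and partners RUNX2, a transcription factor that joins SMADs, was lower on its brightest probe set (list median -0.05). RUNX2 went from 8.39 ± 0.13 to 7.79 ± 0.17 (SD, n = 4), a fold change of -0.60 (adjusted p = 0.0476, and 0.00311 with the block). It passed without treated B (0.0369) and in no other fit that left out 1 array (adjusted p from 0.0523 to 0.183), 3 of its 6 probe sets had the same sign, and the mean of the 6 gave -0.07. It also did not pass when quantile normalised again (0.0527), with a trended and robust prior (0.0678) or without _s_at and _x_at probe sets (0.0529).

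**Figure D4:**
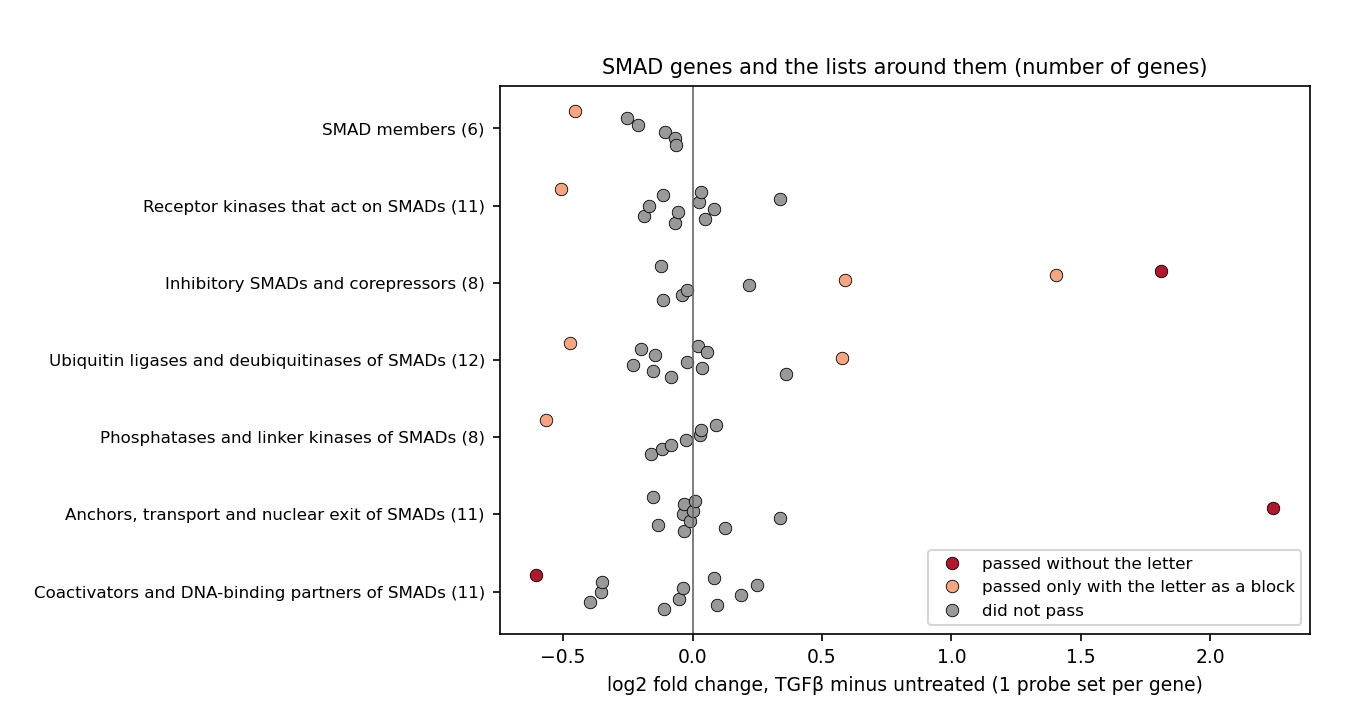
Gene-level log2 fold change (treated minus untreated, 1 probe set per gene) of the 6 SMAD genes and of the 61 measured genes in 6 lists around them. Colours mark genes that passed a limma adjusted p of 0.05 without the replicate letter, only with the letter as a block, or in neither fit. SMAD7 at 1.81 and PMEPA1 at 2.24 lie far above the SMAD genes, which run from -0.45 to -0.06.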

How the data were processed

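The deposited table holds 1 log2 signal per probe set and array, which the authors computed with RMA, according to the submitters' processing notes. Its version and the set of arrays normalised together were not given in the sources used. The log2 base was inferred from the values. RMA pulls the arrays to a common distribution, so a shift of all transcripts would not show. Of 54675 deposited probe sets 62 controls were left out. Genes came from a platform annotation of 2016, in which 41091 probe sets name 1 gene, 1801 several and 11721 none. A gene was represented by its brightest probe set on average.

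Groups came from the labels. The 4 treated and 4 untreated arrays were tested without a block, two-sided, by limma 3.58.1 under R 4.3.3 (lmFit, eBayes, Benjamini-Hochberg, threshold 0.05), over all probe sets and over all genes. The fits were also run on simulated data with planted changes of 1.5-fold and 2-fold. That run did not cover smaller changes or an array that stands apart in its RNA measures. Alternatives took the replicate letter as a block, averaged the probe sets of a gene, dropped _s_at and _x_at probe sets, centred arrays on their median, normalised by quantiles once more, kept the upper 60% of signals, used a robust trended prior, or left out each array or, in the block fit, each letter. Deviations from the group means correlated at 0.490, 0.688, 0.345 and 0.301 for letters A, B, C and D. Only 6 of 8 arrays matched their own letter best, so the pairing by letter was partial. It rests on these data, not on the labels, and the block fits use the same values.

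The members, lists and tests were chosen with earlier results of these data known. The rule for named genes took all SMAD probe sets, each list gene called with or without the block, and the 2 genes most like each SMAD gene. TGFBR1, SMAD6, CDH1, ERBB3 and the noncoding neighbours fall outside it and were picked after their values were seen. Plots used matplotlib 3.10.9 in Python 3.11.15.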

Additional observations from a re-analysis of the deposited data

Results flagged for a closer look

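In each group of 4 arrays the gap between the most distant array and its nearest neighbour was divided by the range of the group. Of 50 such groups, 25 SMAD probe sets in 2 conditions, 6 had a ratio above the level that chance exceeds in about 1 of 20 groups. The share of all probe sets above this level on these arrays was not computed. The count is therefore not read as a trait of the SMADs. Arrays of letter A and B held all 6. SMAD1 210993_s_at was lowest on untreated A (ratio 0.873), at 4.66 against 4.99 to 5.04 on the other 3 arrays. SMAD3 205396_at was lowest on treated A (0.896), at 4.59 against 5.55 to 5.66, the array that also had the raised 3′ to 5′ differences. SMAD4 202527_s_at was lowest on untreated A (0.948), at 7.70 against 8.08 to 8.10. SMAD4 1565703_at was highest on letter B in both conditions, with a ratio of 0.947 untreated (3.77 against 3.34 to 3.36) and 0.844 treated (4.41 against 3.20 to 3.39). SMAD5 205187_at was highest on treated B (0.843), at 6.62 against 5.65 to 5.80. The cause of these values was not tested.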

How the results depend on the processing

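No SMAD probe set or gene passed the test in the fits without the letter, whichever 1 array or setting was changed. Of 437 alternative values for SMAD probe sets 402 kept their direction and their side of the threshold, and of 113 for SMAD genes 103 did; the cause was not tested for the others. With the replicate block the SMAD1 gene-level value was -0.45 and passed, and without letter A in the block fit it was -0.55 and passed, also on SMAD1 227798_at (-0.55). SMAD3 205396_at passed in the block fit without letter C (-0.71). The number of SMAD probe sets that passed was thus 1 in the block fit without A and 1 without C. The block changed no other SMAD call.

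Signs turned where values were near 0. The SMAD5 gene value became 0.18 as the mean of its probe sets. In the block fit it became 0.00033 without letter C and 0.041 without letter D, the same as SMAD5 225219_at, which stood for the gene. Leaving out letter A in the block fit gave 0.019 for SMAD2 235598_at, 0.11 for SMAD3 205397_x_at, 0.033 for SMAD4 202526_at, -0.13 for SMAD5 225223_at and 0.025 for SMAD9 206320_s_at. Leaving out B gave 0.023 for SMAD3 205397_x_at, -0.060 for SMAD4 1565703_at and -0.025 for SMAD5 205188_s_at. Leaving out C gave -0.01 for SMAD1 208015_at, 0.029 for SMAD4 235725_at and 0.008 for SMAD9 206320_s_at, and leaving out D gave 0.050 for SMAD4 1565702_at. Quantile normalisation again gave 0.011 for SMAD4 235725_at.

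Leaving out single arrays gave ranges of -0.20 to 0.072 for SMAD5 (gene and 225219_at), -0.17 to 0.058 for SMAD9 (gene and 227719_at), -0.094 to 0.023 for SMAD2 235598_at, -0.20 to 0.16 for SMAD3 205397_x_at, -0.095 to 0.042 for SMAD4 235725_at, -0.17 to 0.24 for SMAD4 1565703_at, -0.19 to 0.11 for SMAD4 202526_at, -0.094 to 0.022 for SMAD4 1565702_at, -0.037 to 0.18 for SMAD5 225223_at, -0.0012 to 0.40 for SMAD5 205188_s_at and -0.062 to 0.018 for SMAD9 206320_s_at.

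Among all features, 140 probe sets and 114 genes passed. With the replicate block these were 954 and 705, and without letters A, B, C and D in the block fit 1416, 282, 389 and 384 probe sets and 1304, 288, 321 and 356 genes. Leaving out single arrays gave 33 to 240 probe sets, the highest without treated A and the lowest without untreated D, and 46 to 232 genes, the highest without treated A and the lowest without treated D. With 4 arrays a group, the standard error of a SMAD fold change was 0.08 to 0.27. RMA alone cannot tell a transcript from background at any signal, and 5 of the 25 probe sets had mean signals outside the upper 60%. Several others lay below the median gene at 5.80, among them SMAD1 227798_at (5.16) and SMAD9 227719_at (4.70) and 206320_s_at (4.34).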
